A study of Mus musculus with 2 samples.

Results

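The SoxB and SoxC groups are 8 of the mouse genes that encode Sox transcription factors. The list was taken by name: Sox1, Sox2, Sox3, Sox14 and Sox21 of the B group and Sox4, Sox11 and Sox12 of the C group, out of 21887 protein-coding gene models. For each gene the peaks of trimethylated histone H3 lysine 4 (H3K4me3) that touched the gene model, with 1 kb added to each side, were read singly and after joining peaks no more than 1 kb apart into domains. These same peaks were known when the genes were chosen, so their presence, widths and scores are given as a description without a test.

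The chromatin came from sorted NOS1+ enteric neurons of the mouse small intestine. NOS1 is the neuronal nitric oxide synthase, and neurons that carry it relax the muscle of the gut wall. Chromatin immunoprecipitation followed by sequencing gave 1 H3K4me3 library, and 1 input library was made beside it. The sources used here do not give genotype, strain, age, number of animals or the method of the sort. There was no second H3K4me3 library, so no value below has a replicate error, and neighbouring values in any order of the genes could not be told apart by a spread. The comparisons are between genes within 1 library.

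Sox proteins bind DNA through a shared high-mobility-group box and usually act with a partner factor. SoxB1 proteins (Sox1, Sox2, Sox3) keep neural progenitors undifferentiated, and Sox2 also stays on in glia, enteric glia among them. The SoxB2 proteins Sox14 and Sox21 mostly repress transcription, Sox21 in opposition to SoxB1 factors and Sox14 in sets of central neurons. SoxC proteins (Sox4, Sox11, Sox12) act later, when cells leave the progenitor state, and switch on neuronal genes. H3K4me3 marks active promoters and also poised ones, most of them rich in CpG dinucleotides, so a peak is not a measure of transcription.

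The promoters are shown first, because the groups differed in how much of the promoter was covered. RefSeq promoter windows (GRCm38.p6) were found for 7 of the 8 genes, not for Sox3. The 250 bases before the annotated start are printed 5′ to 3′ as the gene reads. In the first 4, of the B group, capitals mark the bases under a called peak.
Sox1, chr8:12395269-12395518, plus strand: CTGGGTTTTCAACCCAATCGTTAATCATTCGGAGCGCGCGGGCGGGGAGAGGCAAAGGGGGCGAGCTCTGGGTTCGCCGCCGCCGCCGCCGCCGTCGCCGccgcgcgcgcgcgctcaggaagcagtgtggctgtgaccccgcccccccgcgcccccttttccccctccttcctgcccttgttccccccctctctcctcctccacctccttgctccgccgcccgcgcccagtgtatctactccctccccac
Sox2, chr3:34649745-34649994, plus strand: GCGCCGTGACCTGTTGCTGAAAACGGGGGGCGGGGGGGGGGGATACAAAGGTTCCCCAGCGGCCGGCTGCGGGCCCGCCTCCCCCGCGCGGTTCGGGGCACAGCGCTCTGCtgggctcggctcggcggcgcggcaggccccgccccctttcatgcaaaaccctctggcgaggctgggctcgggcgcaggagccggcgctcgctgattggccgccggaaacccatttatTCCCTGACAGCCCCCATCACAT
Sox14, chr9:99876171-99876420, minus strand: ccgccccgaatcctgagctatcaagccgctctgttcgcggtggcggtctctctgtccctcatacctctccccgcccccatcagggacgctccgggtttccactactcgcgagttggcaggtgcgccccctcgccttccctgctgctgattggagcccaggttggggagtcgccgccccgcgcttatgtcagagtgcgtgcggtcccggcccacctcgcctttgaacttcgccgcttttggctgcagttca
Sox21, chr14:118237031-118237280, minus strand: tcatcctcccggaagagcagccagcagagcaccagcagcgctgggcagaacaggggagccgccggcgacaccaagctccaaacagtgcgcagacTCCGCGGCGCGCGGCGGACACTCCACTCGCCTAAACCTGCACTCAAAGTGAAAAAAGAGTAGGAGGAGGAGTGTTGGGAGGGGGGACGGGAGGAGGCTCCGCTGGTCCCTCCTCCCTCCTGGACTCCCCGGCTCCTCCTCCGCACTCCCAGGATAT

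At Sox1 the 100 bases farthest from the start lay under a peak and the 150 next to the start did not. At Sox2 the uncovered stretch ran from position -139 to -23, counted back from the start, and 133 of the 250 bases were covered. At Sox21 the covered stretch was the 156 bases next to the start. No base of the Sox14 stretch was covered.

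The 3 C group stretches lay wholly under 1 peak each, so capitals in them mark short motifs instead: CAGCTG, an E-box of the kind bound by basic helix-loop-helix factors, and ATGCAAAT, the octamer bound by Pou factors, which are frequent Sox partners.
Sox4, chr13:28953700-28953949, minus strand: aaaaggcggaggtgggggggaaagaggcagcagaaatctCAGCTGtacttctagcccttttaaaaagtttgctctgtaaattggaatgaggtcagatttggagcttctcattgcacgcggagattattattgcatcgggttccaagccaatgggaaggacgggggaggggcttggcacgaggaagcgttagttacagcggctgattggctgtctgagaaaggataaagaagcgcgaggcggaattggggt
Sox11, chr12:27342719-27342968, minus strand: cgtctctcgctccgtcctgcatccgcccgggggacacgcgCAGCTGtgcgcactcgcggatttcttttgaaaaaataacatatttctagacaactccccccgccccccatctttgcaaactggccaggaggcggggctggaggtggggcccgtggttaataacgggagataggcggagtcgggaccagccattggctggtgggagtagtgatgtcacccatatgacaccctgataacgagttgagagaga
Sox12, chr2:152398047-152398296, minus strand: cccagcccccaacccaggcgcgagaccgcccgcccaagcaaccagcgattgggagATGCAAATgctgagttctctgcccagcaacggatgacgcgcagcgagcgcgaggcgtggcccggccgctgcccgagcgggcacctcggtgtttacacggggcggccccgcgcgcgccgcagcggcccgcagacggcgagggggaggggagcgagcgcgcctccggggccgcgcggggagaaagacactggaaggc

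Over the full 300 base window, which adds the 50 bases from the start on, all 300 bases lay under a peak at Sox4, Sox11 and Sox12. Of the 21263 windows of protein-coding genes, 38.7% were wholly under peaks and 59.6% were touched by one. The B group windows had 206 covered bases at Sox21, 183 at Sox2, 145 at Sox1 and 0 at Sox14. All 3 C group windows were thus wholly covered, and none of the 4 B group windows was. The start itself lay inside a peak at 5 of the 7 genes, against 54.3% of starts of protein-coding genes, and inside a merged domain at 6 of the 7, against 58.1%. The Sox1 start was in a domain but in no peak, and the Sox14 start was in neither.

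In all, 7 of the 8 genes carried at least 1 peak, beside 67.0% of all protein-coding genes. All 3 C group genes and 4 of the 5 B group genes were among them, and Sox14 was the exception. Models of the same length range (2065 to 8451 bp) carried a peak in 57.8% of cases. With 8 genes chosen by name, nothing was read from the gap between these shares.

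Sox2, the B group gene best known from progenitors and glia, carried the widest marking of the 8. Its gene model (chromosome 3, 34649995 to 34652461, mm10) lay from end to end under a single peak of 4588 bp that scored 115.8. That peak began 22 bp before the start and ended 2099 bp past the end of the model. A second peak of 899 bp that scored 41.1 lay just upstream. Joined across gaps of at most 1 kb, 7 peaks formed a domain of 8624 bp, which ranked 43 of the 14665 genes with a peak. The domain reached 1408 bp upstream and 7215 bp downstream of the start, against medians of 628 and 1116 bp over 12348 annotated starts that lay in a domain. Among these starts the downstream reach of Sox2 was at percentile 99.8. The outer pieces were small: the 4 beyond the main peak were 153 to 786 bp wide with scores of 4.67 to 7.86. With joining only up to 500 bp the domain was 6557 bp.

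Sox1 and Sox3, the other SoxB1 genes, were marked in pieces with low scores. Over Sox1 (chromosome 8, 12395519 to 12399555) lay 4 peaks of 528, 565, 526 and 156 bp, with scores of 10.4, 19.2, 12.9 and 10.6. The annotated start fell between the first and the second, in an uncovered gap, 5 bp before the second began. No single Sox1 peak was wide, and joined they spanned 2313 bp, of which 76.7% was under peaks. Among 2029 domains within 10% of that width the median was 2 peaks and 97.1% covered, and Sox1 stood at percentile 98.6 for the number of peaks.

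Over Sox3 (chromosome X, 60891366 to 60893430) lay peaks of 1665, 223 and 683 bp with scores of 34.4, 6.28 and 11.8, and together they spanned 2870 bp. They left the lower end of the model free and covered 81.6% of it. The peak over the model's higher coordinate was the narrowest, and the third lay beyond it, over the noncoding gene Gm38438, whose annotated start fell between the second and the third.

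Of the SoxB2 genes, Sox21 had the lowest best score and the shortest merged domain of the 7 marked genes, and Sox14 had no peak. Sox21 (chromosome 14, 118233233 to 118237030) carried 1 peak of 1091 bp that scored 10.9, from 156 bp before its start to 934 bp after it. Peaks within 10% of this width had a median score of 116.7, and the Sox21 peak stood at percentile 0.71 among those 2185. The same peak covered the annotated start of the noncoding gene Gm4675, which reads the other way, so it cannot be assigned to one gene. Sox14 (chromosome 9, 99874106 to 99876170) had no peak over its model or within 25 kb of it. Between its neighbouring coding genes Cldn18 and Il20rb, 740 kb in all, 5 peaks were called, the widest of 514 bp.

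**Figure D1:**
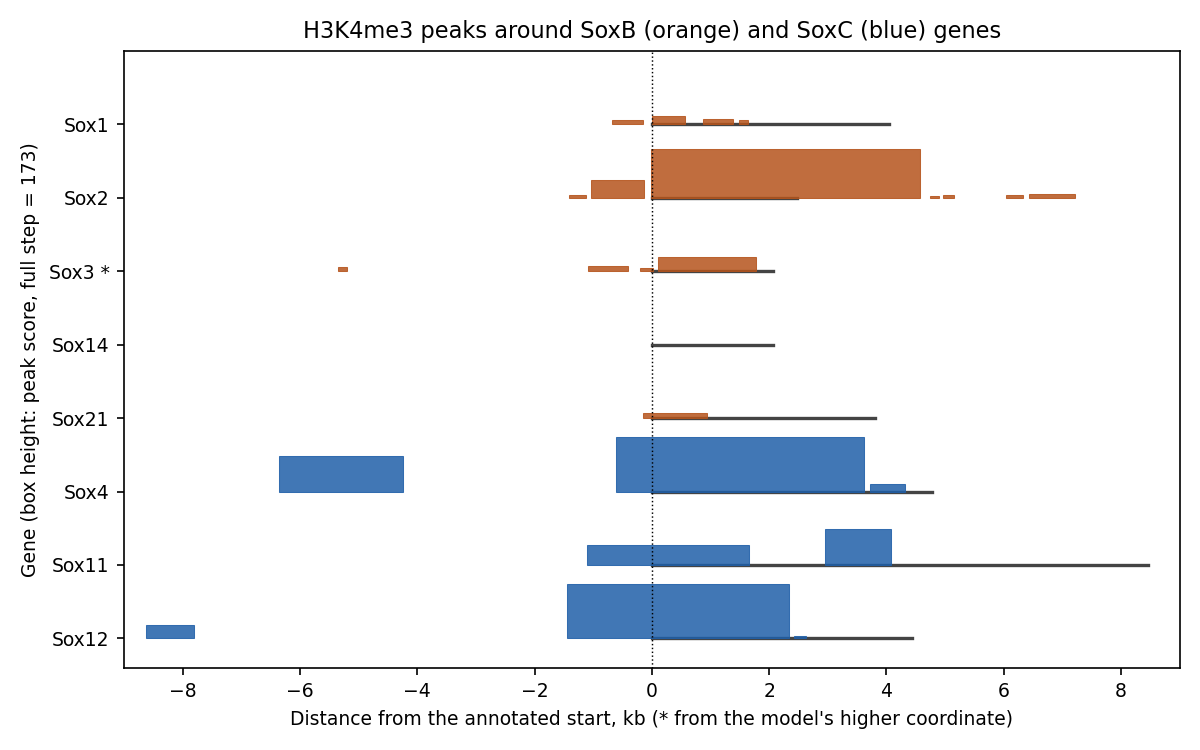
H3K4me3 peaks around the 8 genes, by distance in kb from the annotated start, with each gene reading to the right. Boxes are peaks, their height is the score, and dark lines are gene models. Sox3 is drawn from the higher coordinate of its model, since no start was taken for it. Wide boxes cover the starts of Sox2, Sox4, Sox11 and Sox12, low pieces lie over Sox1, Sox3 and Sox21, and Sox14 has none.

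The C group was marked by wide peaks at all 3 starts. Sox4, which acts in newborn neurons, carried a peak of 4220 bp that scored 129.8 (model on chromosome 13, 28948919 to 28953699). It ran from 605 bp before the start to 3614 bp after it, and a second piece of 593 bp brought the domain to 4925 bp, rank 376. Peaks covered 88.0% of the Sox4 model, at percentile 97.6 among genes of the same length range with a peak, whose median was 22.2%.

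Sox12, a weaker transcriptional activator than the other two, carried a peak of 3782 bp that scored 129.1 (model on chromosome 2, 152393611 to 152398046). This peak began 1445 bp upstream of the start. With a piece of 220 bp and score 4.85 the Sox12 domain was 4080 bp, rank 780. The scores of Sox4 and Sox12 were close, and those of Sox2 and Sox11 lay below them.

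Sox11, a partner of Sox4 in neuronal differentiation, was marked by 2 separate peaks (model on chromosome 12, 27334268 to 27342718). The one over the start was 2761 bp wide with a score of 46.5. The other, of 1122 bp, lay 2960 to 4081 bp inside the gene and had the higher score, 84.5. Of the 7 marked genes, Sox11 alone had its best score in a peak away from the widest one. Joining up to 2 kb in place of 1 kb made these 1 domain of 5191 bp.

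Set side by side, the widest single peaks were 4588, 1665, 1091 and 565 bp in the B group and 4220, 3782 and 2761 bp in the C group. The groups overlapped, because Sox2 was above all 3 C group genes and the other B group genes were below them. The same order held for scores at the lower end: Sox3, Sox1 and Sox21 had at most 34.4, and Sox2 and the C group at least 84.5. The median domain was 4080 bp over the 3 C group genes and 2591.5 bp over the 4 B group genes with a peak, against 1816 bp over all genes with a peak. Without merging the medians were 3782 and 1378 bp. With Sox14 entered at 0, the B group median domain was 2313 bp. By domain width the groups overlapped further, because Sox3 (2870 bp) also lay above Sox11 (2761 bp).

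Requiring a higher score lowered the number of genes with a peak, among the 8 and among all genes. Among the 50% of peaks with the highest scores, which began at 35.7, 4 of the 8 genes kept a peak, against 57.8% of all genes. They were Sox2, Sox4, Sox11 and Sox12, and Sox3 lay just under the limit. Among the 25% with the highest scores, from 140.9 on, none of the 8 kept one, against 37.3% of all genes. With 8 genes chosen by name, nothing was read from the gaps to these shares. In the upper 50% the order of the medians turned, to 5604 bp for the B group and 3782 bp for the C group, and the B value there was that of Sox2 alone.

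Among the 7 marked genes the 4 with the widest peaks also had the 4 highest scores, but against all genes with a peak they ranked higher for width than for score. Single peaks of Sox2, Sox4 and Sox12 were at percentiles 99.2, 98.8 and 97.9 of all genes with a peak for width, and at 35.0, 39.9 and 39.5 for score. For Sox11 the percentiles came from different peaks: 91.5 for the width of the peak over the start and 26.5 for the score of the peak inside the gene. Compared with peaks within 10% of their own width, the widest peaks of Sox2, Sox4 and Sox12 were at percentiles 22.4, 30.8 and 27.2 for score. Those of Sox11 and Sox3 were at 3.15 and 3.90, and that of Sox1 was at 41.7. Thus each of the 7 genes had a best score under the median of genes with a peak, 152.6.

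**Figure D2:**
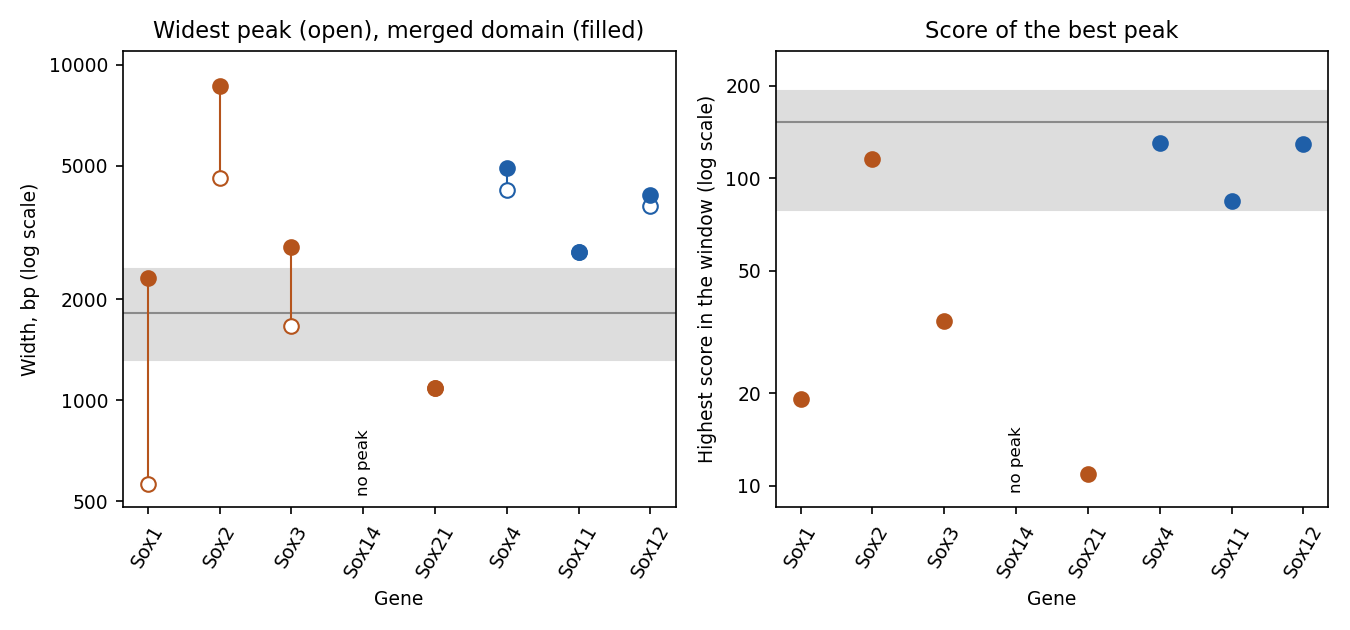
Widest single peak and merged domain in bp (left) and highest score (right) of each gene in 1 library, both on log scales, B group in orange and C group in blue. The grey line and band are the median and interquartile range over 14665 genes with a peak (left, of merged domains). Sox2, Sox4, Sox11 and Sox12 lie above the band for width, single or merged, and within it, under the line, for score, while Sox1, Sox3 and Sox21 lie below the band for score.

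Base composition did not order the genes the way the peaks did. Over all promoter windows the share touched by a peak was 5.15% at a ratio of observed to expected CpG under 0.2 and 97.9% (exact 95% Clopper-Pearson interval over windows 97.1 to 98.5%) at a ratio of 1 or more. All 7 windows had ratios over the median of 0.57. The highest were Sox12 (1.07, with 47 CpGs) and Sox1 (1.07, with 37 CpGs), 1 wholly under a wide peak and the other under 2 separate pieces. The lowest was Sox4 (0.68, with 12 CpGs and 52.0% G and C), whose window was wholly covered. So were 59.9% of all windows with ratios from 0.6 to 0.8.

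The Sox14 window had 26 CpGs and a ratio of 0.82, like those of Sox2 (27 CpGs, 0.82) and Sox11 (21 CpGs, 0.82). Of the 4254 windows with ratios from 0.8 to 1, 125 were touched by no peak, and Sox14 was one of them (97.1% were touched, exact interval 96.5 to 97.5%). In the same range 67.9% of windows were wholly covered, as Sox11 was.

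**Figure D3:**
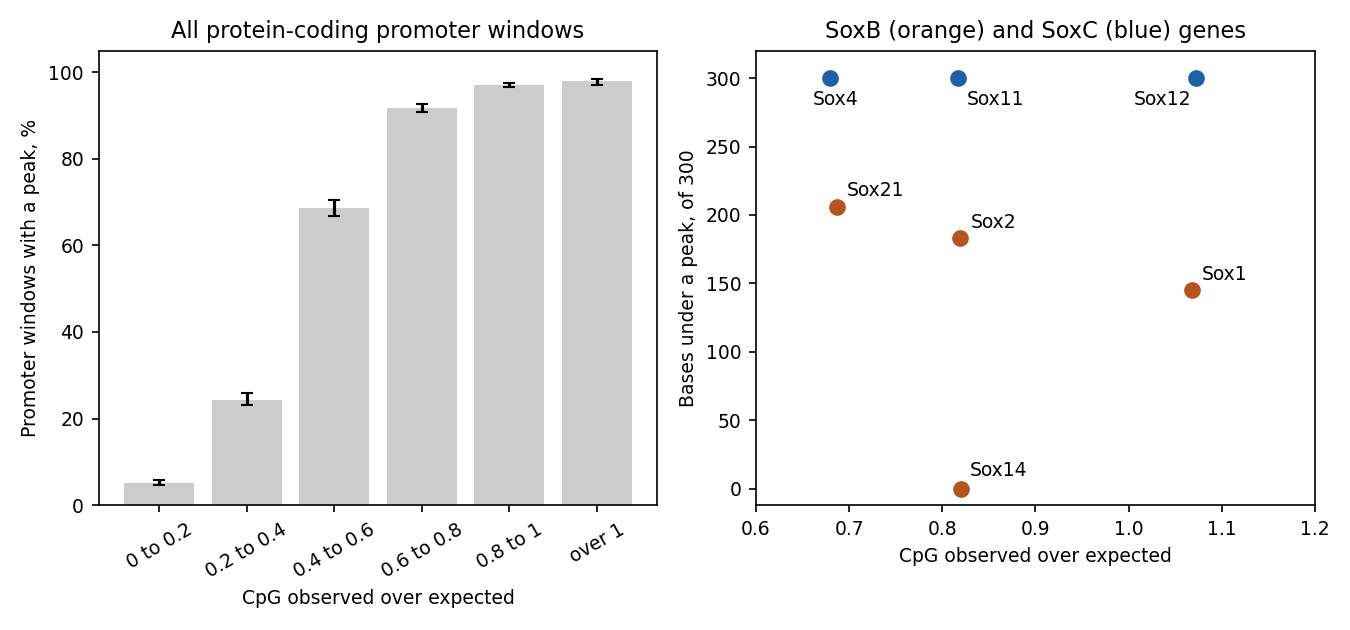
Left, the share of promoter windows of all protein-coding genes touched by an H3K4me3 peak, in percent, by the ratio of observed to expected CpG, with exact 95% intervals over windows. Right, the bases under a peak in the 300 base window of 7 genes against the same ratio. The 3 C group windows are at 300 bases over the whole range of ratios, and the B group windows run from 0 for Sox14 to 206 for Sox21.

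Motifs were searched on both strands of the 300 base windows, as letters only. CAGCTG, held by 15.6% of all windows, occurred in Sox4 and Sox11, beginning at positions -211 and -210 from the start, and in no B group window. ATGCAAAT, held by 1.66% of all windows, occurred in Sox12, beginning at position -195, and in Sox1, at position 19 of the transcribed side. The first of these octamers lay under the Sox12 peak and the second under the Sox1 peak that begins just after the start. GGGCGG, the letters bound by Sp factors, occurred in 5 of the 7 windows (46.2% of all) and was not found in Sox4 or Sox21. The Sox letters AACAAT and AACAAAG, the E-box CATCTG, the TATA box letters TATAAA, the Rbpj letters GTGGGAA and TTCAGCACC, part of the site of the neuronal repressor NRSF, occurred in none of the 7. They were held by 9.05%, 5.01%, 14.6%, 12.6%, 6.07% and 0.41% of all windows. A match is a stretch of letters and no measurement of binding.

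Most of the 8 genes stood far from other coding genes. The free length to the coding models on both sides was 1950 kb at Sox11, 1670 kb at Sox2, 1035 kb at Sox4, 738 kb at Sox14, 632 kb at Sox3 and 286 kb at Sox1, against a median of 48.0 kb over all models. Sox21 (99.1 kb) was nearer to others, and Sox12 (30.9 kb) was below the median. The peaks called in these spaces, outside the window of the gene itself, numbered 18 around Sox2, 9 around Sox4, 5 around Sox14, 4 around Sox1, 3 each around Sox3 and Sox11, 2 around Sox12 and 1 around Sox21. The count around Sox2 takes in the small outer pieces of its own merged domain, which lay more than 1 kb from the model.

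Noncoding genes lay over or beside several of the 8, and shared their peaks. Sox2 lies within the noncoding gene Sox2ot, which held 10 peaks in all. One of them, of 2767 bp that scored 51.1, lay 10496 bp beyond the Sox2 model. Another, of 1232 bp that scored 18.6, covered the microRNA gene Mir1897. Sox1 lies within Sox1ot, whose annotated start fell in a gap of a cluster of 3 peaks of 355, 663 and 322 bp, the nearest of them 9409 bp from the Sox1 model. Sox4 lies within Gm46405, and a peak of 2103 bp that scored 83.6, 4250 bp upstream of the Sox4 start, covered the annotated start of Gm46405. Around Sox12 the nearest coding starts were those of Zcchc3, under a peak of 3016 bp that scored 172.0, and Nrsn2, whose model held no peak.

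The flank left the widest peak, merged domain and best score of each marked gene unchanged. Covered lengths and numbers of peaks did move with it. Of 35 values of the marked genes, 10 moved with no flank, 6 with 500 bp, 5 with 2500 bp and 7 with 5 kb. At 5 kb Sox2 went from 2 to 7 peaks and from 4350 to 7190 covered bp. The likeness to other genes, which uses covered length and number of peaks, was not tested with other flanks. With the flank of 1 kb, the nearest peak left out was a piece of 292 bp at 1117 bp from the Sox2 model, which merging took in. At the other genes the nearest left out was at 4250 bp (Sox4), 5197 bp (Sox3), 7808 bp (Sox12) and 9409 bp (Sox1), and none lay within 25 kb of Sox11, Sox14 or Sox21.

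The rest of the Sox family gives the setting. Of the 12 genes of other groups, 8 carried a peak (66.7%, against 67.0% of all protein-coding genes). All 3 SoxD genes did: Sox5 (2815 bp, score 212.3), Sox6 (2479 bp, 110.6) and Sox13 (2883 bp, 151.6), the widest peak and highest score of each. Their merged domains were 3053 bp at Sox5, 5246 bp at Sox6 (rank 296) and 2883 bp at Sox13, so that of Sox6 was wider than each C group domain. All 3 SoxE genes, which specify neural crest and glia, also carried a peak. Sox10 had the widest domain of the family (12133 bp, rank 14), followed by Sox2, and Sox8 had 3775 bp and Sox9 2303 bp. Of the SoxF genes, which act in blood vessels, Sox7 carried 1 peak of 1176 bp that scored 12.8, and Sox17 and Sox18 carried none. Of the testis genes, Sox30 had a peak of 933 bp, and Sry, which lies on the Y chromosome, had none. Sox15 also had none. The median domain of the 8 marked genes of these groups was 2968 bp, between the B and C group medians.

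**Figure D4:**
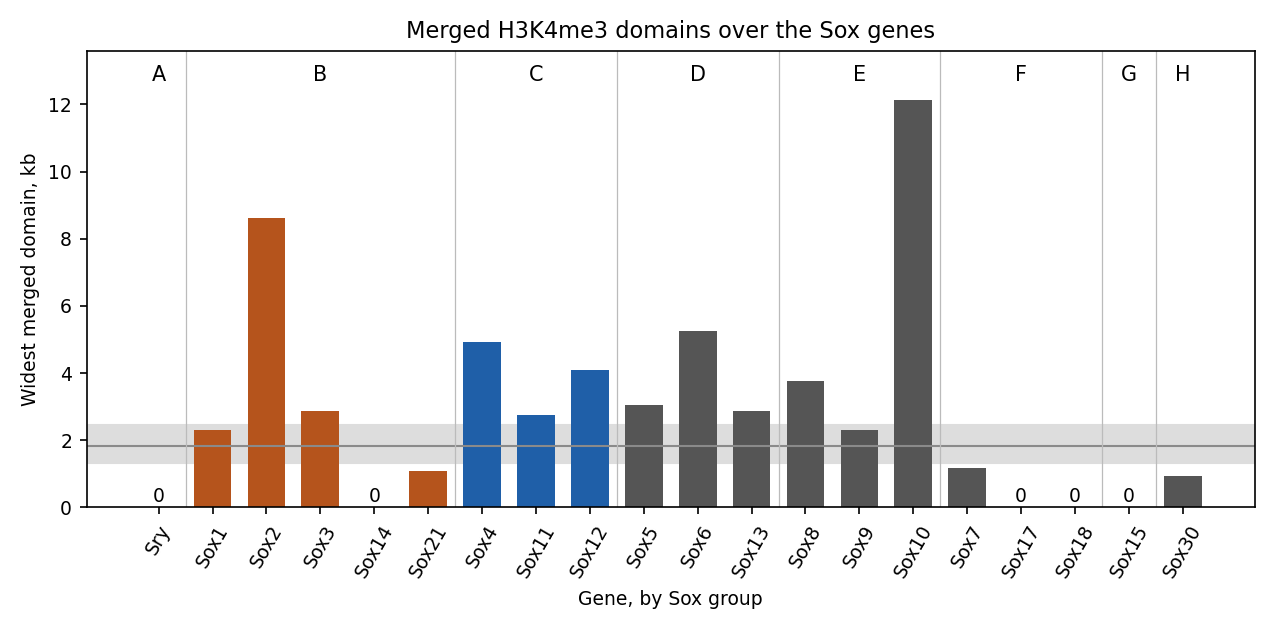
Widest merged H3K4me3 domain, in kb, over each of 20 Sox genes in 1 library, ordered by group A to H. The grey line and band are the median and interquartile range over 14665 genes with a peak, and 0 marks genes with no peak. Sox10 (12133 bp) and Sox2 (8624 bp) are the widest. The 3 C group bars lie above the band, and so do those of Sox3, Sox5, Sox6, Sox13 and Sox8.

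The B group genes were set beside markers of the cells a sort of gut neurons could hold. All 7 enteric glia markers carried a peak, with a median domain of 4295 bp and best scores of 26.9 to 194.7. All 7 pan-neuronal markers did so too, with a median of 2177 bp and scores of 11.6 to 104.8. Peaks also lay over 4 of 4 smooth muscle markers (median domain 3415.5 bp, scores 15.4 to 32.6). So they did over 3 of 4 epithelial (722 bp), 2 of 3 endothelial (1364 bp) and 1 of 3 leukocyte markers (333 bp). The lists differed less in single peaks than in domains for glia and neurons. The median widest peak was 2049 bp for glial, 1858 bp for neuronal and 866 bp for smooth muscle markers, against 1515 bp over all genes with a peak. Smooth muscle markers had a median of 4.5 peaks each. Over all protein-coding genes 67.0% carried a peak, with a median domain of 1816 bp, and with 3 to 7 markers a list these counts were not told apart from that share. Vil1, Cdh5, Cd3e and Itgam had none. The part of glia in the B group peaks was not tested. In a pool of sorted cells, fewer cells with the mark and less of the mark per cell cannot be told apart.

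The partner and progenitor list holds Pou factors, Notch signalling genes, Id genes and others such as Pax6 and Nes. All 21 of its genes carried a peak (exact interval 83.9 to 100%, against 67.0% of all genes). They had a median domain of 3113 bp and a median best score of 92.7, against 1816 bp and 152.6 over all genes with a peak. The widest single peaks were at Jag1, a Notch ligand (3959 bp), Hey1, a Notch target (3798 bp), Pou3f1 (3536 bp) and Rbpj, the DNA-binding factor of Notch signalling (3415 bp). The Pou3 factors, among them partners of Sox2, differed from one another: Pou3f1 had a best score of 90.1, against 12.9 at Pou3f2, 9.32 at Pou3f3 and 14.1 at Pou3f4.

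Of the 20 genes in the neuronal and proneural list, where SoxC factors act, 17 carried a peak (85%, exact interval 62.1 to 96.8%, against 67.0% of all genes). Their median domain was 2263 bp and their median best score 38.4, against 1816 bp and 152.6 over all genes with a peak. Hnrnpk, an RNA-binding protein gene (3362 bp, score 226.7), and Insm1, a zinc finger factor of new neurons (2961 bp, score 46.0), were among the 4 widest. Tubb3 and Dcx, which encode microtubule proteins of young neurons, differed: Tubb3 had a domain of 2177 bp that scored 36.9, and Dcx had no peak. Neurod4 and Nhlh1, both basic helix-loop-helix factors, also had none.

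Genes most like each member within this library were sought outside the family by domain width, covered length, best score and number of peaks, each standardised over 14665 genes. The closest were Nr3c2 and Mycn to Sox4, Ccnd2 and Foxd3 to Sox2, Ajuba to Sox12, Hmcn1 to Sox11, Lrrn4 to Sox1, Hs3st3b1 to Sox3 and 4930404N11Rik to Sox21. Nr3c2 had a domain of 4868 bp that scored 131.8, nearly the values of Sox4. Ccnd2, the nearest to Sox2, had a domain of 7801 bp that scored 139.0. Foxd3, a neural crest and glial factor and the second nearest, had a domain of 11118 bp that scored 102.2. Cnn2, the third, had a domain of 8200 bp that scored 146.2. Sox4 and Nr3c2 were 0.036 standardised units apart, while outside the family Sox2 had no gene nearer than 0.32 and Sox11 none nearer than 0.31.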

How the data were processed

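One H3K4me3 library and 1 input library of sorted NOS1+ neurons make up the series, and no input values were analysed here. The authors' deposited peak list gives 29924 peaks with a position and a score. MACS2 called them on paired-end reads, per the file headers. BWA, Picard, MACS2 and mm10 are named in the submitters' processing notes. Versions, threshold, duplicate handling and the score's scale were not stated there, so the score only ranks and describes peaks. Depth is unknown, and weak domains split or go uncalled first when it is low.

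Gene models came from RefSeq on GRCm38.p6, whose coordinates are those of mm10, and start sites from the RefSeq promoter table. A gene counted as marked when a peak shared 1 bp or more with its model and 1 kb to each side. Percentiles are mid-ranks. Python 3.11.15, pandas 2.3.3 and scipy 1.17.1 were used, and the code was tested on simulated data. The members and lists were chosen with earlier results of these data known. Named are all 8 members, the other Sox genes, genes within 25 kb, the 4 widest and the unmarked genes of each partner list and some of the 3 genes nearest in pattern. A few genes the rule takes are counted but not reported here by name. A planned comparison of proteins was not made. The comparisons by like width, covered promoter bases and CpG range were chosen after seeing the data.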

Additional observations from a re-analysis of the deposited data

How the results depend on the processing

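The count of 7 genes with a peak, 4 of the B and 3 of the C group, was the same with flanks of 0, 500 bp, 2500 bp and 5 kb, with at least 50% of a peak required in the window and with peaks at least 300 bp wide. In the better-scored 50% of peaks it was 4 in all, 1 of the B group and 3 of the C group, and in the best-scored 25% it was 0 in each. In that 25% no median could be computed. The median domain of the B group was 1378 bp without merging, 2469 bp with peaks at least 300 bp wide and 5604 bp in the better-scored 50%. That of the C group was 3782 bp in these 3 settings and 4925 bp with gaps of 2 kb. The C minus B difference of 1488.5 bp became 2404 bp without merging, 1313 bp with peaks at least 300 bp wide and 2333.5 bp with gaps of 2 kb. It turned to -1822 bp in the better-scored 50%, where Sox2 was the one B group gene left. No paired analysis was possible because there is 1 H3K4me3 library. With depth unknown, Sox14 is uncalled in this list and not shown to be unmarked.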
